A study of Mus musculus with 6 samples.

Results

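The homeodomain-interacting protein kinases (HIPK) and the dual-specificity tyrosine-regulated kinases (DYRK) form one branch of the CMGC kinases. The genes described here are Hipk1, Hipk2 and Hipk3 and Dyrk1a, Dyrk1b, Dyrk2 and Dyrk3, 7 of the 48709 genes in the count table. They were chosen on the comparison reported below, because Hipk3 had the lowest p-value of all genes and because Dyrk3 is an erythroid kinase. Their differences between the groups are therefore given as a description, without a test of their own.

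A DYRK kinase phosphorylates its own activation loop on tyrosine while it is being made, and then acts on serines and threonines of other proteins. HIPK kinases sit mostly in the nucleus, where they phosphorylate transcription factors and corepressors. In red cell precursors, Dyrk3 is known as a brake on the expansion of progenitors, and Hipk2 as a kinase needed for late erythroid maturation.

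RNA was sequenced from G1E-ER4 cells, a mouse erythroid line made from Gata1-null embryonic stem cells, which carries GATA1 fused to the ligand-binding domain of the estrogen receptor. Cells in both groups carried this fusion, were given a Tat-linked peptide at 10 μM for 2 h and were then induced with tamoxifen for 28 h. The CHD4-APR peptide held the aggregation-prone region of the chromatin remodeler CHD4, the CTRL peptide a run of alanines, and each group had 3 libraries. The tamoxifen concentration is given as 100 nM in the growth protocol and as 100 μM in the series design. Both groups come from 1 cell line, no library batch is named, and nothing states that the libraries came from separate cultures, so that p-values measure the spread between these libraries, which may be technical.

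The libraries held 41687482 to 49784177 counts. Of all genes, 12722 passed the filter on low counts, including the 7 kinases, and their common biological coefficient of variation was 0.0518. All 16 erythroid markers examined reached 1 CPM (counts-per-million, a count scaled to library size) in every library, while the 4 embryonic stem cell markers were at 0. The erythroid markers together had 75500 to 80800 normalized CPM in CTRL libraries and 65000 to 69000 in CHD4-APR libraries. Of these, 3 rose, among them Gata1 and Tfrc, 7 fell (the 4 globin genes, Klf1, Zfpm1 and Nfe2) and 6 did not pass edgeR's test, with log2 fold changes from -0.33 for Hbb-bs to 0.26 for Tfrc. Gata1 counts can come from the introduced fusion, since the line was made from Gata1-null cells, and need not reflect a native erythroid gene. With the correction for exonic length and GC content described below, 2 were called higher, Gata1 and Slc4a1, and 2 lower. Tfrc then had 0.0011. Of 7 myeloid markers, 3 reached 1 CPM in every library and Mpo was at 0. Their sum, mostly Spi1, was 182 to 211 in CTRL libraries and 166 to 167 in CHD4-APR libraries. Of 6 megakaryocyte markers, 3 reached 1 CPM in every library and Gp1bb was at 0, with sums of 54.6 to 58.4 and 50.1 to 54.0. The 5 mast cell markers summed to 0.307 to 0.580 and 0.224 to 0.529, and the 4 lymphoid markers, with Cd3e and Ms4a1 at 0, to 0.304 to 0.590 and 0.328 to 0.604. The part of these shifts in the values below was not tested, and fewer cells of a type and less RNA per cell cannot be told apart in bulk RNA.

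The sequences just before the start sites of 3 of the kinases are shown. They were picked because Hipk3 had the lowest p-value, Hipk2 is a relative with a similar difference, and Dyrk3 is the erythroid member. They are RefSeq promoters on GRCm38.p6, read 5′ to 3′ on the minus strand, which carries these genes, and bases that GENCODE places inside the gene were left out. Capitals mark GGGCGG or its reverse complement, the letters of an SP-factor site. The stretches are chr2:104494490-104494739 for Hipk3, chr6:38876191-38876440 for Hipk2 and chr1:131138341-131138484 for Dyrk3.
Hipk3: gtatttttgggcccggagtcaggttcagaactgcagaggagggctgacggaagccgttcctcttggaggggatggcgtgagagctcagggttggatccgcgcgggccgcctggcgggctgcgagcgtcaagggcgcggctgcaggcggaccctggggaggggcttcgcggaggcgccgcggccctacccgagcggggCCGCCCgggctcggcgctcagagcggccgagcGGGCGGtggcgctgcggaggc
Hipk2: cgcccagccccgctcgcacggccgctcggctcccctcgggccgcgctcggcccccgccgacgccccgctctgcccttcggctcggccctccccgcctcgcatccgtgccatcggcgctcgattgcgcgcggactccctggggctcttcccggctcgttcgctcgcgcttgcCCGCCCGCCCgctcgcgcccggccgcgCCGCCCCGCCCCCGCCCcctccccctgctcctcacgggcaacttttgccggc
Dyrk3: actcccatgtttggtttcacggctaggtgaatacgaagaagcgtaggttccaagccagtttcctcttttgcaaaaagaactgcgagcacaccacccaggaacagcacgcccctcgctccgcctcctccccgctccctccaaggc

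Hipk3 held these letters at 2 places and Hipk2 at 5, some of them overlapping, while the Dyrk3 stretch held none. RefSeq listed 12 start sites for the 7 kinases. In the 250 bases before them, searched on both strands, GGGCGG was found at 7 of the 12 start sites, which belong to 5 of the 7 genes. Dyrk1b held them at 2 of 2 start sites, and Hipk1 and Dyrk3 at 0 of 2 and 0 of 1. The same letters were found in 32.7% of 32851 mouse promoters, whose median GC content was 52.4%, while the 7 that matched had 56.8 to 80.8%. CCACACCC, the letters of a KLF1 site, was found at 1 of the 12, at a Hipk1 start site, and in 3.20% of all promoters. The GATA letters AGATAA, the CRE letters TGACGTCA and the AP-1 letters TGANTCA were each found at 0 of the 12, against 9.99%, 1.55% and 6.75% of all promoters. These are matches of letters in a short window, and no binding was measured. Whether they bear on the differences between the groups was not tested.

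Hipk3 (ENSMUSG00000027177), on chromosome 2 from 104426481 to 104494446 in GRCm38, encodes a nuclear kinase first known as an interactor of FAS and of the androgen receptor. Its normalized CPM were 70.1, 76.2 and 74.5 with CTRL and 130, 133 and 122 with CHD4-APR. The lowest CHD4-APR library was 1.60 times the highest CTRL library. The means were 73.6 ± 3.18 (SD, n = 3) and 128 ± 5.52 (SD, n = 3), a log2 fold change of 0.80 with a standard error of 0.0495. Its p-value, by edgeR's quasi-likelihood test, was 1.62e-11 and ranked 1 of the 12722 genes, which is the value that chose this family. By size of increase it ranked 226.

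Hipk1 (ENSMUSG00000008730), on chromosome 3 from 103739815 to 103791563, and Hipk2 (ENSMUSG00000061436), on chromosome 6 from 38694390 to 38876165, encode close relatives with overlapping roles in the mouse embryo. Hipk1 had 234, 260 and 267 normalized CPM in CTRL libraries and 358, 377 and 363 in CHD4-APR libraries, a log2 fold change of 0.53 with a standard error of 0.0499. Hipk2 had 39.7, 38.7 and 40.0 against 61.5, 61.8 and 55.9, a log2 fold change of 0.60 with a standard error of 0.0542. For both genes the groups did not overlap, and the third CHD4-APR library of Hipk2 lay below its other two.

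Dyrk3 (ENSMUSG00000016526), on chromosome 1 from 131127455 to 131138340, had 96.5, 93.5 and 98.5 normalized CPM in CTRL libraries. In CHD4-APR libraries it had 125, 132 and 142. The groups did not overlap, and the CHD4-APR libraries were spread more widely (SD 8.68, n = 3) than the CTRL libraries (SD 2.53, n = 3). The log2 fold change was 0.47 with a standard error of 0.0508.

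Dyrk2 (ENSMUSG00000028630), on chromosome 10 from 118855603 to 118870209, encodes a kinase that phosphorylates the p53 protein after DNA damage and primes substrates for GSK3. It was the least abundant of the 7 kinases, with 58 to 157 counts in a library. It had 1.37, 1.80 and 1.91 normalized CPM in CTRL libraries and 2.93, 3.44 and 3.33 in CHD4-APR libraries. The groups did not overlap, and the log2 fold change of 0.93 was the largest of the 7 and had the largest standard error, 0.161.

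Dyrk1a (ENSMUSG00000022897), on chromosome 16 from 94570010 to 94695517, encodes the kinase of the Down syndrome region that opposes NFAT signalling and the cell cycle. It had 73.3, 79.2 and 72.9 normalized CPM in CTRL libraries and 85.7, 87.2 and 89.3 in CHD4-APR libraries. The groups lay close but did not overlap, and the log2 fold change was 0.22 with a standard error of 0.0483.

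Dyrk1b (ENSMUSG00000002409), on chromosome 7 from 28179469 to 28187294, encodes the nearest relative of Dyrk1a, known for holding cells in quiescence. It was the exception, with 46.4, 38.6 and 45.4 normalized CPM in CTRL libraries and 43.7, 40.0 and 39.7 in CHD4-APR libraries. The groups overlapped, and the log2 fold change of -0.077 was about as large as its standard error of 0.0683. With each library left out in turn, it ran from -0.158 without CTRL 2 (FDR 0.0503 by edgeR) to -0.027 without CTRL 1.

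**Figure D1:**
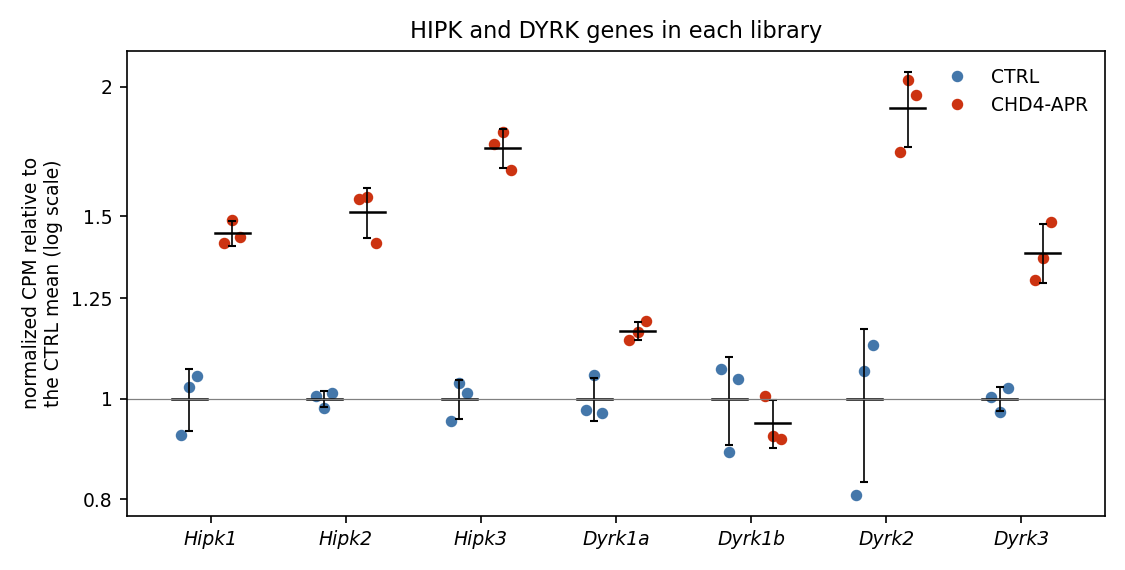
Normalized CPM of each kinase gene in each library, divided by the mean of its CTRL libraries, on a log scale. Points are libraries, lines are means and bars are SD (n = 3). The CHD4-APR libraries lie above all CTRL libraries for 6 genes and overlap them for Dyrk1b.

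In the fit over all genes, 6 of the 7 kinases were higher with an adjusted p (FDR) under 0.05 by edgeR's quasi-likelihood test, and 0 were lower. Over all genes tested, 38.3% were called, 20.4% higher and 17.8% lower. DESeq2 and limma-voom also called 6 of the 7 higher, against 19.6% and 20.3% of all genes. The groups did not overlap in 6 of the 7, all higher with CHD4-APR, against 25.0% of all genes in that direction and 49.9% in either. The kinases also called and 1.5-fold higher were Hipk2, Hipk3 and Dyrk2, 3 of 7 against 3.48% of all genes. Since this contrast chose the family, these counts describe it and nothing is read from them.

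Per length, Dyrk3 was the most abundant of the 7 kinases in both groups. With the CTRL peptide it had 30.3 ± 0.795 RPKM (SD, n = 3), which is normalized CPM per kilobase of exon, followed by Hipk1 at 23.2 ± 1.60, Dyrk1b at 16.1 ± 1.57, Hipk3 at 9.22 ± 0.397, Dyrk1a at 9.11 ± 0.428, Hipk2 at 4.47 ± 0.0764 and Dyrk2 at 0.271 ± 0.0457. Hipk3 and Dyrk1a overlapped, and every other pair of neighbours in this order was separate in all CTRL libraries. With the CHD4-APR peptide, Dyrk3 had 41.9 ± 2.73 RPKM (SD, n = 3) and Hipk1 33.5 ± 0.901. Hipk3 stood at 16.1 ± 0.691 and overlapped Dyrk1b at 15.3 ± 0.820, while Dyrk1a at 10.6 ± 0.221, Hipk2 at 6.76 ± 0.378 and Dyrk2 at 0.517 ± 0.0427 followed without overlap. With the longest transcript as the length in place of all exons, Hipk1 came before Dyrk3 in both groups, at 31.9 against 30.4 RPKM with CTRL and 46.1 against 42.0 with CHD4-APR. By that length Hipk3 had 9.87 RPKM with CTRL, under Dyrk1a at 13, and 17.2 with CHD4-APR, over Dyrk1b at 16.2 and Dyrk1a at 15.2.

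**Figure D2:**
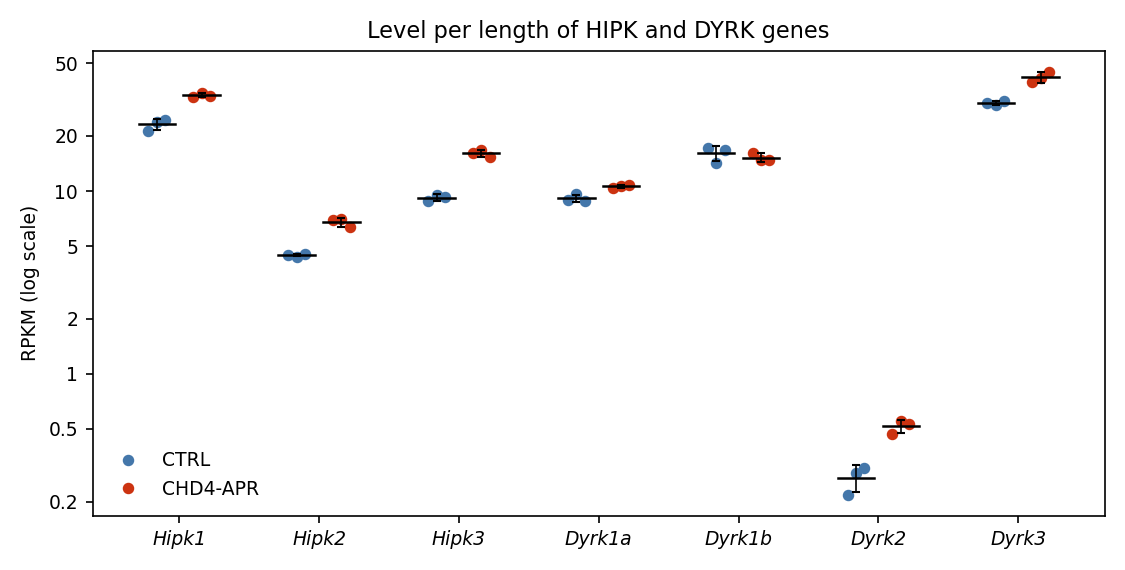
Level per length of each kinase gene in each library, in RPKM on a log scale, with means and SD (n = 3). Dyrk3 is highest and Dyrk2 lowest in both groups, though with the longest transcript as the length Hipk1 lies over Dyrk3.

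The 7 kinases together had 91.4, 91.4 and 95.2 RPKM in CTRL libraries and 122, 126 and 126 in CHD4-APR libraries, and the groups did not overlap. Dyrk3 made up 32.7 ± 0.537% of this sum with CTRL and 33.6 ± 1.80% with CHD4-APR (SD, n = 3), so that its share overlapped between the groups. The share of Hipk3 was 9.60 to 10.4% in CTRL libraries and 12.2 to 13.3% in CHD4-APR libraries. The share of Dyrk1b was 15.7 to 18.8% and 11.7 to 13.2%, and that of Dyrk1a 9.27 to 10.5% and 8.41 to 8.60%. Dyrk1a and Dyrk1b thus took smaller shares with CHD4-APR, and Hipk1, Hipk2, Hipk3 and Dyrk2 larger ones, in each case without overlap between the groups. These shares are as counted. With the fold changes corrected for length and GC content below, the share of Hipk1 went from 25.1 to 24.0%, and the other 5 kept their direction. The share of Dyrk3 then went from 32.7 to 36.2%, while its highest share in a CTRL library was 33.3%.

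The kinases also differ in base composition and in exonic length, and length moved with the fold change in these libraries. When all genes tested were divided by exonic length into 5 bins of near equal size, the bin of the shortest had a median log2 fold change of -0.16. The bin of the longest, of at least 6754 bases, had a median of 0.19, and 50.2% of its genes were called higher. Hipk1, Hipk2, Hipk3 and Dyrk1a, with 10914, 8836, 7987 and 8251 exonic bases, fall in the longest bin. Dyrk2 has 6251, Dyrk3 3178 and Dyrk1b 2695 exonic bases. In the longest coding transcript, the 3′ untranslated region took 64.4% of the bases in Dyrk2, 52.1% in Hipk1, 38.5% in Dyrk3 and 14.6% in Dyrk1b. The GC content of the longest transcript was lowest in Hipk3, at 44.6%, and highest in Dyrk1b, at 62.8%, above that of 98.2% of genes tested.

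**Figure D3:**
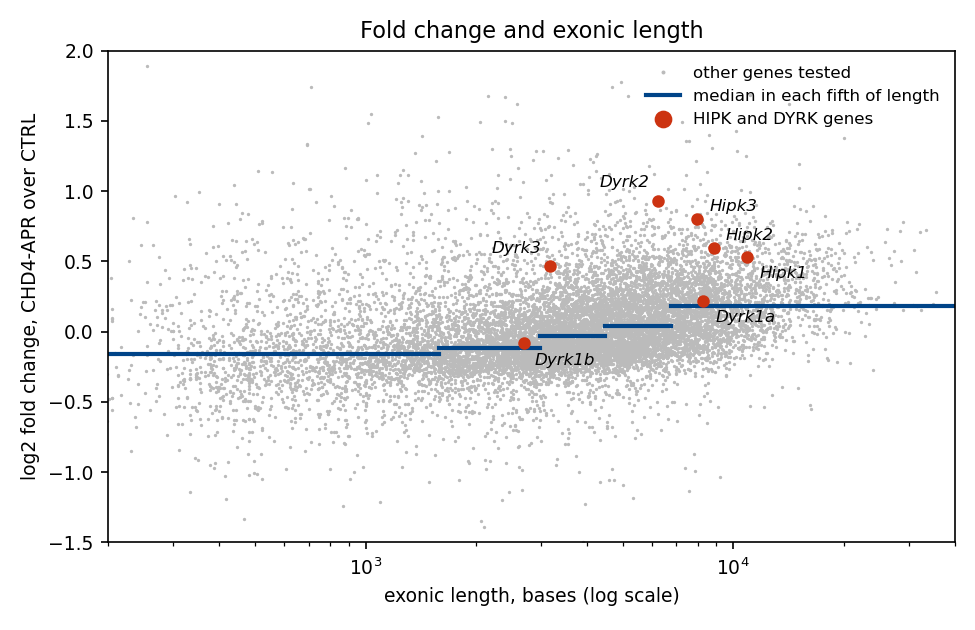
Log2 fold change (CHD4-APR over CTRL) against exonic length in bases, on a log scale, for genes tested, with 199 genes outside the axes not drawn. Blue lines are medians of all genes in each of the 5 bins of length, from -0.16 to 0.19, and red points are the kinase genes. Of these, Dyrk1a and Dyrk1b lie near the medians and the other 5 above them.

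With each library's trend on exonic length and GC content removed, the log2 fold change was 0.59 for Hipk3, 0.57 for Hipk2 and 0.81 for Dyrk2, with standard errors of 0.0382, 0.0462 and 0.156. Dyrk3 had 0.52 (standard error 0.0449), against 0.47 before. Hipk1 moved most among those still called, to 0.31 (standard error 0.0374). Dyrk1a had 0.083 (standard error 0.0420) and was no longer called (FDR 0.164 by edgeR), and Dyrk1b turned to 0.092 (standard error 0.0511). After the correction 5 of the 7 kinases were called higher, against 12.9% of all genes higher, 13.7% lower and 26.6% in either direction.

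**Figure D4:**
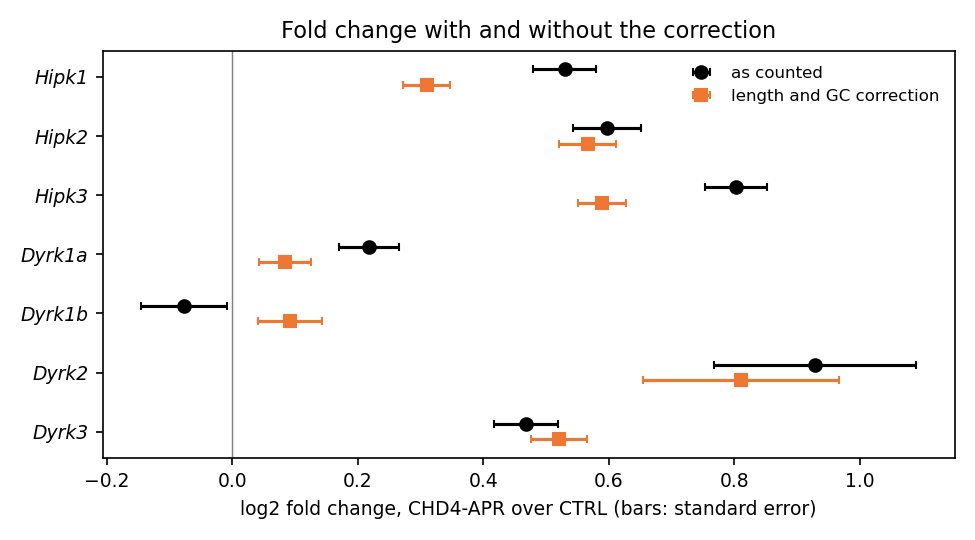
Log2 fold change of each kinase gene, as counted and with the trend on exonic length and GC content removed, with standard errors from edgeR. With the correction Hipk2, Hipk3, Dyrk2 and Dyrk3 lie above 0.5, Hipk1 falls to 0.31, and Dyrk1a and Dyrk1b lie near 0.1.

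Reads from overlapping genes cannot be told apart without strand, and the kit named in the protocol does not mark it. Gm15886 shares 729 exonic bases with Hipk1 on the other strand and had at most 0.525% of the counts of Hipk1. The gene model 4932442E05Rik shares 328 exonic bases with Dyrk2 on the other strand and had 0 to 8 counts, at most 8.99% of the counts of Dyrk2. Mir1902 lies within an exon of Hipk3 and had 0 counts. The treatment of reads matching several relatives is not given in the sources used here.

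The genes most like Hipk3 over the 6 libraries, by the root mean square difference of centred log2 CPM, were Ino80d (0.0293), Slc39a10 (0.0397), Dmxl1 (0.0441), Vps13a (0.0475) and N4bp2 (0.0491). Ino80d, a subunit of the INO80 chromatin remodeler, had 34.5, 38.7 and 38.8 normalized CPM in CTRL libraries and 66.8, 69.8 and 62.1 in CHD4-APR libraries. The genes most like Dyrk3 were Sos1 (0.0297), Zfp41 (0.0462), Ets2 (0.0475), Hs6st1 (0.0476) and Birc3 (0.0476). Sos1, an exchange factor that activates RAS, had 11.9, 11.5 and 12.2 normalized CPM in CTRL libraries and 15.6, 16.1 and 16.7 in CHD4-APR libraries. Within the family, Hipk1 and Hipk2 were nearest to each other by this measure (0.0832), and Dyrk1b and Dyrk2 farthest apart (0.549). With each library left out in turn, 1 to 3 of the 5 genes named for Hipk3 were among its nearest 5, and 1 to 4 of those named for Dyrk3.

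The remaining members of the DYRK branch are Prpf4b, a kinase of the spliceosome, and Hipk4 and Dyrk4, which are known mostly from testis. Prpf4b rose by a log2 fold change of 0.63, with a standard error of 0.0518 and an FDR of 8.12e-07 in edgeR. Its normalized CPM averaged 123 (SD 8.72, n = 3) with CTRL and 191 (SD 6.03, n = 3) with CHD4-APR, and its log2 fold change with the length and GC correction was 0.33. Hipk4 had 0.165 to 0.284 normalized CPM in CTRL libraries and 0.212 to 0.562 in CHD4-APR libraries, and was not called. Dyrk4 had at most 0.117 normalized CPM and did not pass the filter. The levels of the 7 kinases were above those of Hipk4 and Dyrk4 in every library, both as CPM and per length.

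Partners and ubiquitin ligases of these kinases were mostly higher. Of 22 listed genes 20 were tested, and 12 rose, 0 fell and 8 did not pass, with a median log2 fold change of 0.21, against a median of -0.012 over all genes. The rises were 60% of those tested, against 20.4% of all genes and 26.8% of the length bin that holds their median of 5265 bases. Siah2, a ubiquitin ligase that degrades HIPK2 and DYRK2 protein in low oxygen, rose from 1.34 ± 0.107 to 2.22 ± 0.361 normalized CPM (SD, n = 3), a log2 fold change of 0.73 (FDR 0.00507 by edgeR). Dcaf1, part of the ligase that DYRK2 helps assemble, Wsb1, a substrate receptor that targets HIPK2, and Spred1, a RAS pathway inhibitor that binds DYRK1A, rose with log2 fold changes of 0.44, 0.41 and 0.39. Dcaf7, the scaffold that binds DYRK1A and HIPK2, rose by 0.23 on the log2 scale. With the length and GC correction 8 were called, all higher, against 12.9% of all genes, and the median was 0.14. Siah2, Dcaf1, Wsb1 and Dcaf7 were among the 8, at 0.87, 0.25, 0.30 and 0.20, while Spred1 had 0.14 and was not called (FDR 0.180 by edgeR).

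Substrates of HIPK kinases were tested for 13 of 17 genes, of which 8 rose, 1 fell and 4 did not pass, with a median log2 fold change of 0.21. The rises were 61.5% of those tested, against 20.4% of all genes and 50.2% of the longest bin, in which the median length of these substrates, 8775 bases, lies. Ep300, a histone acetyltransferase, rose from 130 ± 10.2 to 183 ± 6.98 normalized CPM (SD, n = 3), a log2 fold change of 0.50 (FDR 4.74e-06 by edgeR). Tcf7l2 and Ctnnb1, which act together in WNT signalling, rose with log2 fold changes of 0.47 and 0.24. Hmga1, a chromatin architecture protein, fell by 0.18 on the log2 scale. Trp53, the best known HIPK2 substrate, had a log2 fold change of -0.060 (FDR 0.364 by edgeR). With the length and GC correction 4 were called, all higher, against 12.9% of all genes, and the median was 0.086. Ep300 and Ctnnb1 were among the 4, at 0.36 and 0.23, while Tcf7l2 had 0.31 (FDR 0.192 by edgeR) and Hmga1 0.0032 (FDR 0.965), neither called. Without CHD4-APR 2 the counts were 5 higher and 1 lower, and without CHD4-APR 1 they were 6 and 0.

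Substrates of DYRK kinases were tested for 21 of 26 genes, of which 13 rose, 4 fell and 4 did not pass, with a median of 0.21. The rises were 61.9% of those tested, against 20.4% of all genes (17.8% were lower) and 50.2% of the longest bin, in which the median length of this list, 7099 bases, lies. Creb1, the transcription factor activated through DYRK3, Sirt1, a deacetylase, and Pcm1, a centriolar satellite protein that DYRK3 keeps soluble in mitosis, rose with log2 fold changes of 0.39, 0.46 and 0.35. Jun was called higher at a low level, with 0.193 to 0.425 normalized CPM in CTRL libraries and 0.445 to 0.738 in CHD4-APR libraries. Its log2 fold change was 1.12, with an FDR of 0.0260 in edgeR and a standard error of 0.373. Ccnd3, the cyclin D of erythroid cells that DYRK kinases mark for degradation, fell by 0.28 on the log2 scale (FDR 1.32e-04 by edgeR). Psmc3, which encodes a proteasome subunit, Hsf1, the heat shock factor, and Akt1s1, the mTORC1 inhibitor phosphorylated by DYRK3, had log2 fold changes of -0.21, -0.20 and -0.19. With the length and GC correction 5 were called higher and 2 lower, against 12.9% and 13.7% of all genes, and the median was 0.026. Jun, Sirt1, Ccnd3 and Hsf1 were among them, while Creb1, Pcm1, Psmc3 and Akt1s1 had 0.012, 0.081, -0.077 and -0.035 and were not called. Without CHD4-APR 2, and with scaling by total counts only, 2 genes were called lower in place of 4. The subunit that DYRK2 is known to phosphorylate is encoded by Psmc4, which was not on the list and had a log2 fold change of -0.26 (FDR 2.66e-04 by edgeR) and of -0.14 with the correction (FDR 0.00813). With Psmc4 in place of Psmc3, a change made after the data were seen, 13 genes were called higher and 4 lower, and 5 and 3 with the correction.

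The DREAM complex silences cell cycle genes in resting cells and is assembled when DYRK1A phosphorylates its LIN52 subunit. Its list had 12 genes, all of which were tested, and includes Mybl2, which is not a subunit of the repressor complex itself. Of the 12 genes, 7 rose, 2 fell and 3 did not pass, with a median of 0.20. The rises were 58.3%, against 20.4% of all genes and 26.8% of the bin of 4484 to 6752 bases, which holds their median length of 5226. Lin54, which binds DNA, the pocket protein gene Rbl1, Lin9 and Tfdp2 rose with log2 fold changes of 0.56, 0.54, 0.43 and 0.27. Lin37 fell by 0.27 and Mybl2, which replaces the repressor subunits in dividing cells, by 0.17 on the log2 scale. Lin52 itself had a log2 fold change of 0.084 (FDR 0.477 by edgeR). With the correction 4 genes were called, all higher, against 12.9% of all genes, and the median was 0.076. These were Lin54, Rbl1, Tfdp1 and, not called before it, E2f4, the last pair named after their values were seen. Lin9, Tfdp2, Lin37 and Mybl2 then had 0.19, -0.0096, -0.077 and -0.087 and were not called. With scaling by total counts only, and without CHD4-APR 1, CTRL 2 or CTRL 3, 1 gene was called lower in place of 2.

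**Figure D5:**
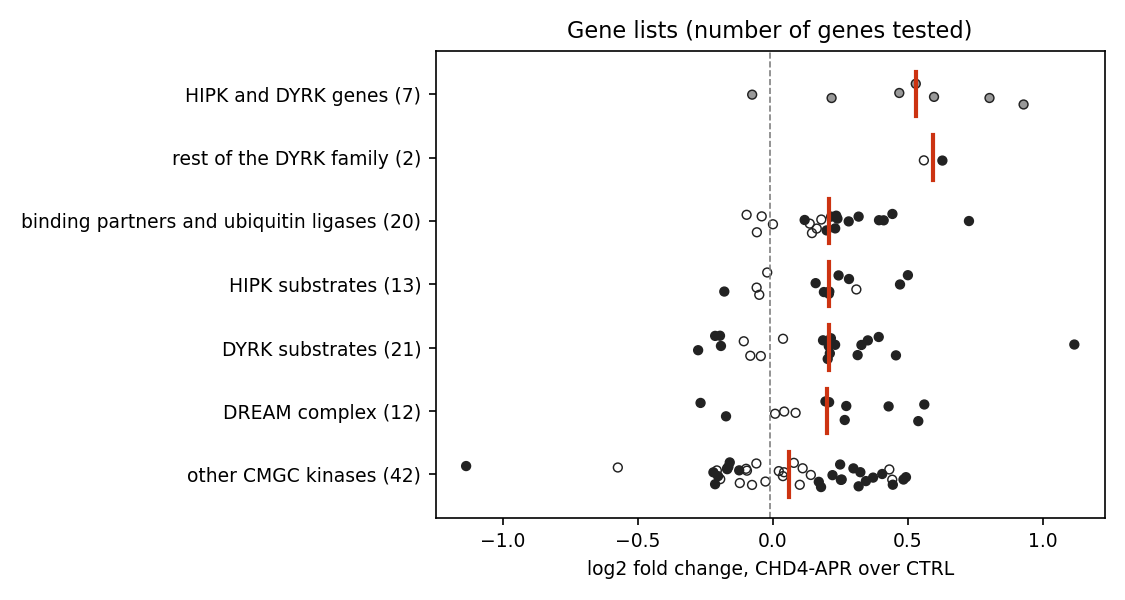
Log2 fold change (CHD4-APR over CTRL) of each gene tested in each list, with the list's median in red and the median of all genes, -0.012, as a dashed line. Filled points had an FDR under 0.05 by edgeR and open points did not, while the kinase genes are grey because they were chosen on this contrast. Medians are 0.53 for the kinases, 0.20 to 0.21 for the partner, substrate and DREAM lists, and 0.059 for other CMGC kinases.

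The other CMGC kinases, among them the cyclin-dependent, MAP and GSK3 kinases, went both ways. Of 53 listed genes 42 were tested, and 14 rose (33.3%), 9 fell and 19 did not pass, with a median of 0.059. Over all genes 20.4% were called higher and 17.8% lower, and 26.8% were higher in the length bin that holds the median of this list, 5955 bases. Cdk12 and Cdk13, which phosphorylate RNA polymerase II, and Mapk6 and Cdk6 rose with log2 fold changes of 0.49, 0.41, 0.48 and 0.44. Cdk11b, Cdk16 and Cdk5 had log2 fold changes of -0.21, -0.20 and -0.22 and passed as lower. Mak also passed as lower, at 0.354 to 0.466 normalized CPM in CTRL libraries and 0.112 to 0.257 in CHD4-APR libraries. With the length and GC correction 8 were called higher and 9 lower, against 12.9% and 13.7% of all genes, and the median turned to -0.081. Cdk12, Mapk6, Cdk11b, Cdk16 and Mak kept their calls, while Cdk13, Cdk6 and Cdk5 had 0.088, 0.15 and -0.085 and were not called. The count of lower calls was the less stable one. It was 4 without CHD4-APR 2, without CHD4-APR 3 or without CTRL 1, 5 without CTRL 3, 6 without CHD4-APR 1 or without a filter on low counts, and 5, beside 17 higher, with scaling by total counts only. With the correction and a replicate block, 9 were called higher and 14 lower.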

How the data were processed

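RNA was measured in 6 libraries, 3 per group. The authors trimmed reads with Cutadapt, aligned them with STAR 2.7.10a to GRCm38 and counted them with featureCounts, and the deposited values are raw counts per gene. The table holds 2 further columns that belong to no listed sample, which were ignored. GENCODE M21, on the same build, named 48349 of 48709 identifiers. In R 4.3.3, genes passing edgeR 4.0.16's filterByExpr were scaled by TMM and compared by its quasi-likelihood F-test, with Benjamini-Hochberg adjustment over 12722 genes and a threshold of 0.05. Standard errors come from the fold change and F statistic, and RPKM from the union of exons. In the length and GC correction, a loess trend (span 0.3) of each library's log2 CPM entered edgeR as offsets. Alternatives were DESeq2 1.42.0, limma 3.58.1 (voom), other scalings and filters, removal of hemoglobin genes, a replicate block and leaving out each library. The procedures were tested on simulated counts, and every replicate pair differed by more than the sampling noise.

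The kinases and lists were chosen with earlier results of these data known. Genes named are the 7 kinases, up to 4 called genes per list with the largest changes in each direction, the 5 nearest in pattern to Hipk3 and Dyrk3, the erythroid markers, and genes overlapping a kinase. Dcaf7, Trp53, Lin52, Tfdp1, E2f4 and Psmc4 were added after their values were seen. Some genes that this rule names are not reported here.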

Additional observations from a re-analysis of the deposited data

How the results depend on the processing

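Over 18 alternatives, Hipk1, Hipk2, Hipk3, Dyrk2 and Dyrk3 kept their direction and an FDR under 0.05. Dyrk1a was lost in 2, both with the length and GC correction, and Dyrk1b turned positive in the same 2, at 0.092 and, with a replicate block, 0.092, without being called. The 7 kinases had 5 to 6 calls throughout.

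With the length and GC correction, without and with a replicate block, the median log2 fold change was 0.14 and 0.14 for the partners, 0.086 and 0.086 for the HIPK substrates, 0.026 and 0.027 for the DYRK substrates, 0.076 and 0.076 for the DREAM complex, and -0.081 and -0.081 for the other CMGC kinases. In both fits 4 HIPK substrates, 7 DYRK substrates and 4 DREAM genes were called, against 9, 17 and 9. With total counts only, the medians were 0.25 for the partners, 0.25 for the HIPK and 0.25 for the DYRK substrates, and 0.10 for the other CMGC kinases, and 2959 genes were called higher and 1474 lower, against 2601 and 2270. The median of the other CMGC kinases was 0.042 with upper quartile scaling, 0.081 without a filter and 0.080 with at least 10 counts in every library. At an FDR under 0.01, 11 DYRK substrates were called. With each library left out in turn, medians were 0.182 to 0.243 for the partners, 0.184 to 0.222 for the HIPK and 0.168 to 0.221 for the DYRK substrates, 0.153 to 0.244 for the DREAM complex, and 0.0317 (without CTRL 2) to 0.0842 for the other CMGC kinases. The longest transcript as length kept 3 of 7 positions in the order of mean levels over all 6 libraries, since it shortens Hipk1 and Dyrk1a most. With each library left out, 1 to 3 of the 5 genes nearest to Hipk3 and 1 to 4 of those nearest to Dyrk3 were kept. For the remaining differences the cause was not tested.

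Deviations from the group means correlated at 0.0697, 0.0552 and -0.0350 between same-numbered libraries. Between libraries of different number the correlations ran from -0.0808 to 0.0338. With 3 libraries per group, such small values cannot settle whether the numbers mark pairs. A replicate block called 5214 genes in place of 4871 and changed no call among the 7 kinases. Depth limits Dyrk2, Hipk4, Dyrk4, Siah2, Tcf7l2, Jun and Mak, which had few counts.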
